A study of Mus spretus with 19 samples.

Results

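Red blood cells and their precursors express a small set of genes at very high level, and 7 of them were followed here in the livers of wild mice: Hba-a1 and Hbb-b1 (adult alpha- and beta-globin), Eraf (the older name of Ahsp, the alpha-hemoglobin stabilizing protein), Slc4a1 (band 3, the anion exchanger of the red cell membrane), Alas2 (the erythroid enzyme of the first step of heme synthesis), Klf1 (an erythroid transcription factor) and Epb4.2 (protein 4.2 of the membrane skeleton). They were taken by their symbols, which the array carries on 12 probes among 27845 gene and transcript names. Of the 7 genes, 5 were measurable on 9 probes. Klf1 and Epb4.2 stayed below the filter on dim probes and entered no test.

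The livers came from male Algerian mice (Mus spretus) caught at 5 sites in southwest Spain. Of these, 4 are labelled polluted: PS, the phosphogypsum stacks, and 3 sites on the Domingo Rubio stream, DR1 on its lower, DR4 on its medium and DR6 on its upper course. The unpolluted site was SOL, the Santa Olalla lagoon. At each site the RNA of 9 livers was combined into 1 pool, which was measured 4 times with the dye Cy3 on one-colour Agilent mouse arrays. DR6 has 3 arrays here, which makes 19 in all. All groups share species, sex and tissue, and age is not given. Since these are technical repeats of 1 pool, a p-value here speaks of how well labelling and hybridization repeat and not of how mice or pools vary. Each site also had its own slide and scan, and site, slide and scan cannot be told apart.

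Hemoglobin is built from alpha- and beta-globin chains, each holding a heme. Heme synthesis begins and ends in the mitochondrion, and in erythroid precursors it begins with Alas2, while AHSP binds alpha-globin chains until they find a beta partner. Young red cells in the blood still carry globin mRNA after the nucleus has been lost. In adult mice the bone marrow and spleen are the main sites of red cell formation, whereas the liver does this before birth and holds blood in its sinusoids afterwards. In RNA of whole liver, fewer erythroid cells and less erythroid RNA per cell cannot be told apart.

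The probes behind the globin and chaperone values are shown because the alpha- and beta-globin genes have near-identical copies that a 60-base probe may not separate. The sequences are those of the deposited array design, in mm8 coordinates, 5′ to 3′. In the 2 Hba-a1 probes, capitals mark the bases at which their shared stretch of 30 bases differs. In the last 2 Hbb-b1 probes, capitals mark a stretch of 29 bases that both hold.
Hba-a1, A_52_P278538, chr11:32183775-32183956, plus strand: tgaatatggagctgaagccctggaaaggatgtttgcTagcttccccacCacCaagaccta
Hba-a1, A_52_P208681, chr11:32196744-32196803, plus strand: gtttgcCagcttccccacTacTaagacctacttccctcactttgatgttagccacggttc
Hbb-b1, A_51_P374468, chr7:103687624-103687683, minus strand: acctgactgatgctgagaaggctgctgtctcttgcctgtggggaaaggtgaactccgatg
Hbb-b1, A_52_P260346, chr7:103687338-103687397, minus strand: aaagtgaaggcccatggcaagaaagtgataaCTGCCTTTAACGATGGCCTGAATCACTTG
Hbb-b1, A_51_P374476, chr7:103687307-103687366, minus strand: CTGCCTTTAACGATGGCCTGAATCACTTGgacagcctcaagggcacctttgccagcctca
Eraf, A_52_P534583, no coordinates in the files: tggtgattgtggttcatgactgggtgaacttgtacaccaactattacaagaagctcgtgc

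The 2 Hba-a1 probes lie at separate positions of chromosome 11, and within their shared stretch they differ at T37C, C49T and C52T, counted from the 5′ end of A_52_P278538. The 60 bases of A_52_P278538 span 182 bases of the genome, so this probe crosses a splice junction. The files carry no symbol Hba-a2, Hbb-b2 or Hbb, and give 2 reference transcripts each for A_51_P374468 and for the remaining Hbb-b1 probe, A_52_P213909, at chr7:103686419-103686478. For the Hba-a1 probe A_52_P208681 they give 0 reference transcripts. How the signal divides between gene copies is therefore uncertain, and Hba-a1 and Hbb-b1 below stand for adult alpha- and beta-globin as these probes see them. All probes were designed for Mus musculus. The single probes of Slc4a1 (chr11:102165032-102165091, minus strand) and Alas2 (chrX:145911166-145911225, plus strand) complete the measured set. The deposited files do not say in which exon or UTR a probe lies.

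Erythroid mRNA was lower in the livers of the 3 stream sites than in those of SOL, while PS lay within 0.44 of SOL on the log2 scale. At DR4 all 5 measured genes fell at least 2-fold, by 1.19 to 1.89 on the log2 scale. At DR6 4 of 5 fell, and at DR1 1 of 5, Hba-a1. At PS none passed, and 3 of 5 had an unadjusted p under 0.05. A gene was called when its difference was at least 2-fold and its adjusted p from limma, a linear model fitted to all 16346 measured genes with Benjamini-Hochberg adjustment over them, was under 0.05. By the same rule, 5.1% of all genes were called lower at DR4, 2.28% at DR6 and 2.55% at DR1, and 4.42% were called in either direction at PS. The 4 comparisons share the SOL arrays, so they are not independent of each other. The 5 genes had a median log2 change of 0.25 at PS, -0.77 at DR1, -1.52 at DR4 and -1.20 at DR6, where the median over all genes was between -0.05 and 0.01.

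Values are given as relative signal, the background-subtracted intensity of the probe divided by the 75th percentile of its array. It compares arrays for 1 probe and does not rank genes. The arrays differed in overall brightness, with a 75th percentile between 99.5 and 285.2 intensity units and 52.0% to 61.5% of gene spots well above background. Across 16003 genes, which are not independent replicates, r was 0.98 to 0.997 between arrays that share a site and 0.952 to 0.984 between arrays of different sites. To check the labelled tissue, hepatocyte markers were read, and all 10 on the array were well above background on all arrays.

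Hba-a1, alpha-globin, was lower at all 3 stream sites by more than 2-fold. Its brightest probe, A_52_P278538, had a relative signal of 371, 377, 414 and 380 on the PS arrays, 145, 118, 146 and 144 on the DR1 arrays, 110, 113, 118 and 112 on the DR4 arrays and 149, 137 and 143 on the DR6 arrays, against 329, 304, 342 and 322 on the SOL arrays. Every stream array lay below every SOL array, and every PS array lay above. The fitted log2 change was -1.23 ± 0.068 (SE) at DR1, -1.52 ± 0.068 at DR4 and -1.18 ± 0.074 at DR6, a 2.35-fold, 2.86-fold and 2.26-fold lower level than at SOL. The adjusted p (limma) was 4.5e-10, 1.1e-11 and 1.9e-09 at these sites. PS stood 0.25 ± 0.068 above SOL (adjusted p = 0.0093, limma), short of 2-fold.

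**Figure D1:**
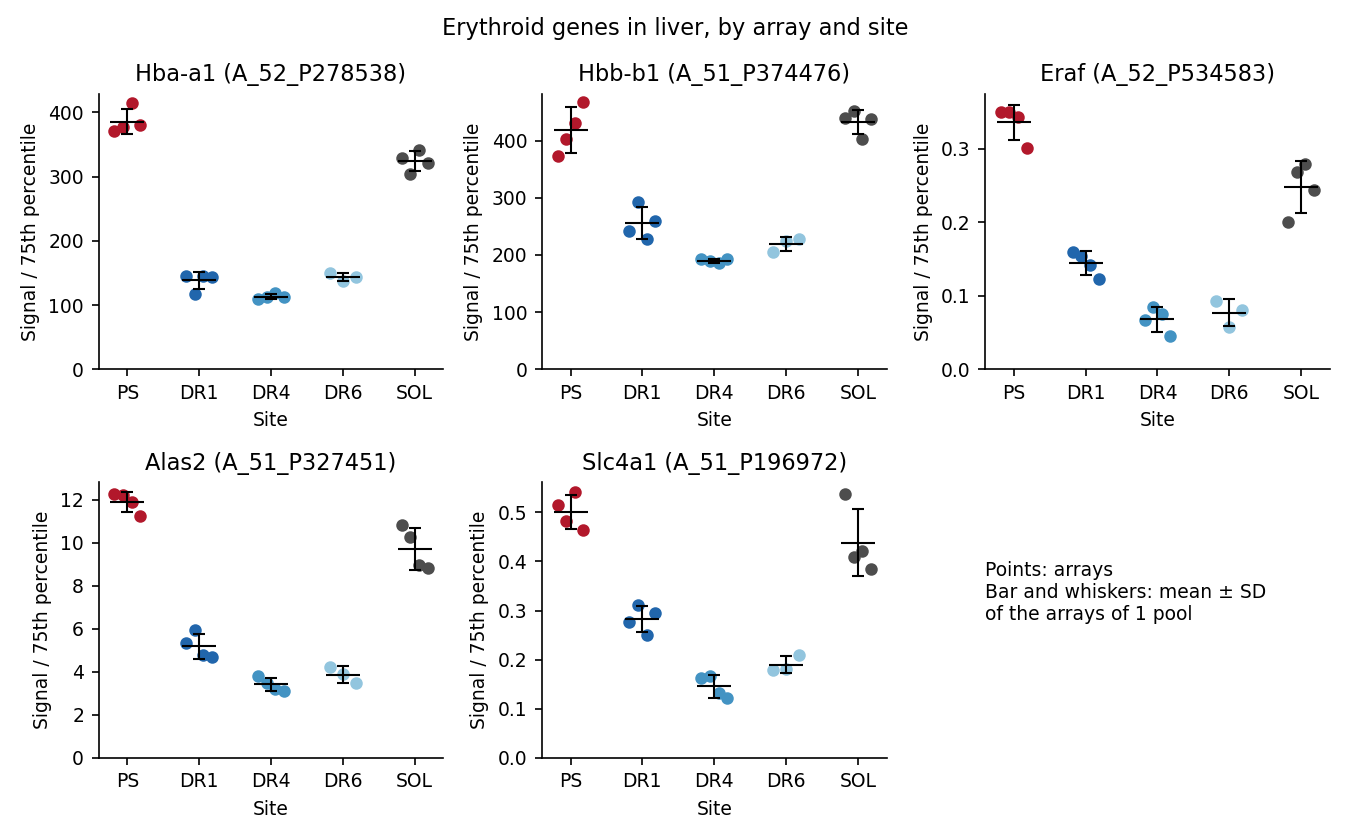
Relative signal (processed intensity divided by the 75th percentile of the array, linear axis from 0) of the brightest probe of each of the 5 measured genes, by site. Points are arrays, and bars with whiskers are the mean ± SD of the arrays of 1 pool. The DR1, DR4 and DR6 arrays lie below the SOL arrays in all panels, for Hba-a1 between 110 and 149 against 304 to 342 at SOL.

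The other alpha-globin probe, A_52_P208681, gave nearly the same picture. It read 284, 286, 293 and 302 at PS, 107, 98.1, 106 and 126 at DR1, 80.8, 83.4, 84.1 and 86.5 at DR4 and 106, 118 and 122 at DR6, against 258, 248, 255 and 248 at SOL. Its log2 changes were 0.21 at PS, -1.21 at DR1, -1.59 at DR4 and -1.13 at DR6. The 3 stream sites were again called and PS was not.

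Beta-globin was lower at the stream sites too, by less at DR1 and DR4. The brightest Hbb-b1 probe, A_51_P374476, had a relative signal of 373, 402, 431 and 468 at PS, 241, 292, 229 and 260 at DR1, 193, 189, 185 and 192 at DR4 and 205, 224 and 228 at DR6, against 440, 452, 403 and 437 at SOL. The stream arrays did not overlap the SOL arrays, and the PS arrays spread across them. The spot was saturated on 3 PS arrays and on 1 DR1 array, and its brightest raw reading was 99.6% of the scanner's ceiling, so a level at PS above the one read could not be seen with it. The log2 change was -1.19 ± 0.079 at DR4 (adjusted p = 1.5e-09, limma), -0.98 ± 0.085 at DR6 (adjusted p = 1.0e-07, limma) and -0.77 ± 0.079 at DR1 (adjusted p = 6.6e-07, limma). The last 2 stayed short of the 2-fold limit. The -0.05 ± 0.079 at PS did not pass (adjusted p = 0.65, limma).

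Probes of Hbb-b1 that were never saturated read PS somewhat higher. A_51_P374468, which reached 11.1% of the ceiling, had a relative signal of 46.6, 45.6, 44.3 and 45.8 at PS, 18.2, 22.8, 20.7 and 21.1 at DR1, 15.5, 15.1, 14.6 and 15.2 at DR4 and 14.0, 16.1 and 15.1 at DR6, against 36.6, 38.3, 35.7 and 37.0 at SOL. Here all PS arrays lay above all SOL arrays, by 0.30 ± 0.064 on the log2 scale (adjusted p = 0.0015, limma over probes). A_52_P213909 gave the same 0.30 at PS, from 312, 314, 318 and 320 against 271, 250, 258 and 246 at SOL. For A_52_P260346 the PS difference was 0.12 ± 0.083 (adjusted p = 0.30, limma over probes), with a SOL range of 170 to 230.

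Across the 4 Hbb-b1 probes the log2 change ran between -0.84 and -0.63 at DR1, between -1.29 and -1.19 at DR4 and between -1.30 and -0.98 at DR6. None passed the 2-fold limit at DR1, all 4 did at DR4 and 3 at DR6. Thus the choice of the brightest probe decided whether Hbb-b1 was called at DR6. With the mean of all its probes it was -1.13 there and called. A_52_P213909 rests on 2 DR1 arrays, because its spot was an outlier on the other 2 and was set missing.

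**Figure D2:**
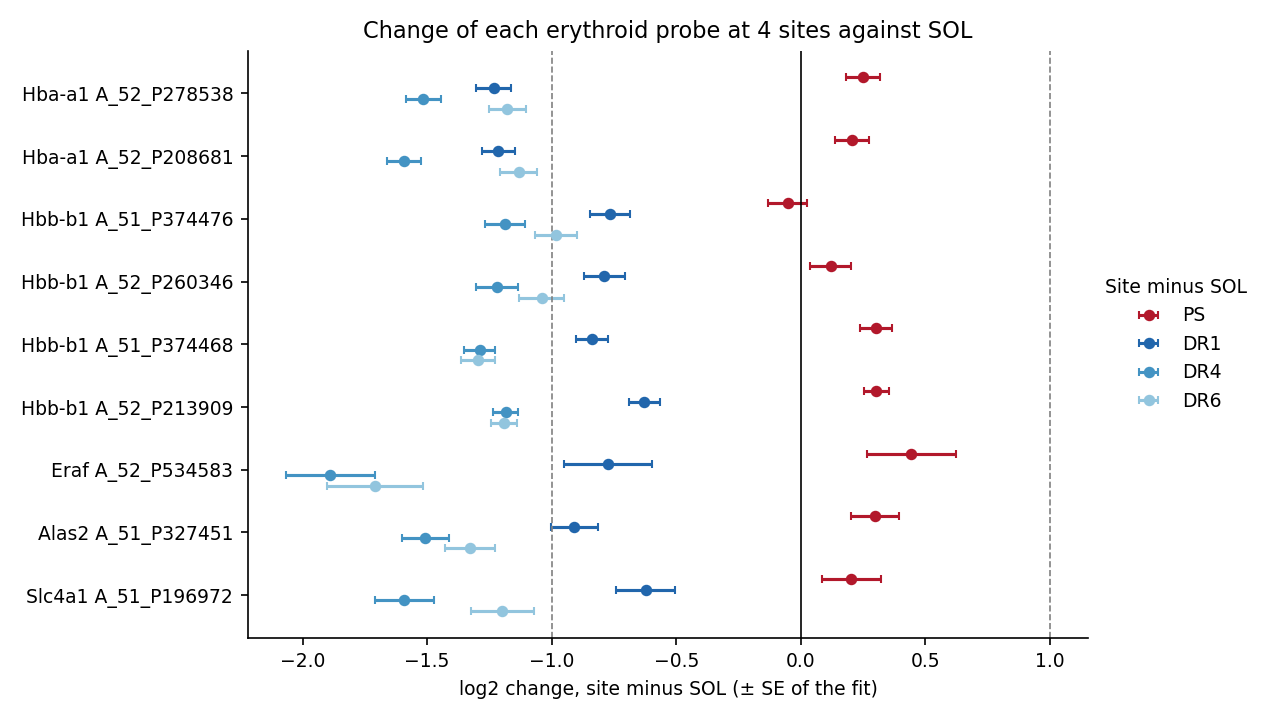
Log2 change of each of the 9 measured erythroid probes at PS, DR1, DR4 and DR6 against SOL (horizontal axis, points with the SE of the linear model fit). Dashed lines mark 2-fold. All probes lie left of 0 at the 3 stream sites, and at PS the changes run between -0.05 and 0.44.

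Added over their 6 probes, the globins made up 0.817% to 0.864% of the summed signal of the PS arrays, 0.409% to 0.432% at DR1, 0.320% to 0.333% at DR4 and 0.324% to 0.345% at DR6, against 0.703% to 0.748% at SOL. These are shares of fluorescence and not of mRNA molecules. All stream arrays lay below all SOL arrays, and DR1 lay above DR4 and DR6.

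The balance of alpha- to beta-globin read lower at DR1 and DR4, without passing the adjusted test. It was taken per array as the mean log2 signal of the 2 Hba-a1 probes minus that of the 2 Hbb-b1 probes with no saturated or outlier spot. It averaged 1.78 ± 0.070 at PS (SD, n = 4), 1.35 ± 0.173 at DR1 (n = 4), 1.46 ± 0.060 at DR4 (n = 4) and 1.77 ± 0.073 at DR6 (n = 3), against 1.76 ± 0.115 at SOL (n = 4). Its height depends on the probes, and only its change between sites can be read. The difference from SOL was -0.41 at DR1 and -0.30 at DR4, with no overlap of arrays. At both sites each alpha-globin probe was lower by more than any of the 4 beta-globin probes. The exact two-sided permutation test over arrays gave p = 0.0286 for both, the smallest that 4 against 4 arrays allow, and 0.0714 after adjustment over the 10 pairs of sites, so neither passed. DR6 differed from SOL by 0.01 (exact permutation p = 0.857) and PS by 0.02 (exact permutation p = 0.686). Set against DR6 itself, the difference was -0.42 for DR1 and -0.31 for DR4, each at the smallest exact permutation p of 0.0571 that 4 against 3 arrays allow. Without the DR1 array that read lowest, at 1.10, the other DR1 arrays stood between 1.38 and 1.51, still below the lowest SOL array at 1.67.

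**Figure D3:**
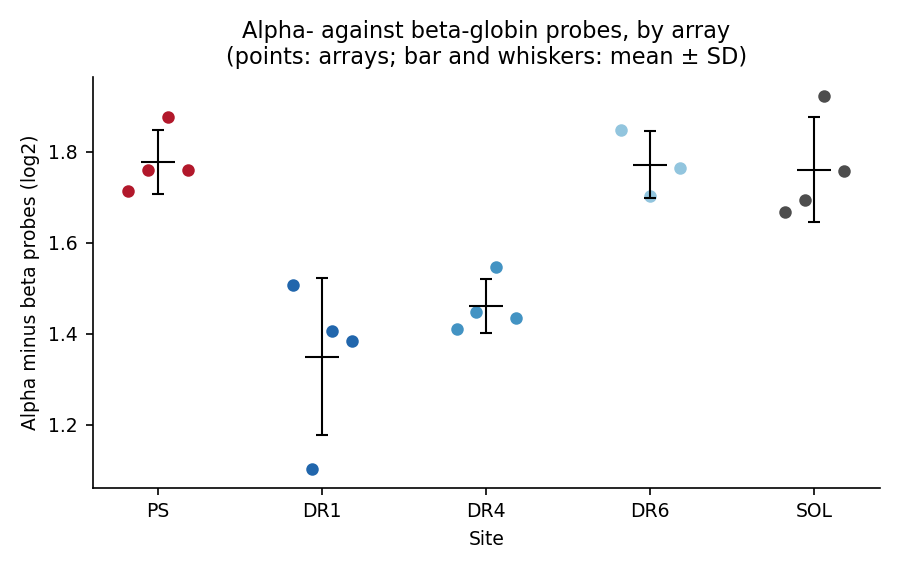
Mean log2 signal of 2 alpha-globin probes minus that of 2 beta-globin probes (vertical axis, log2) on each array, by site, with the mean ± SD. The DR1 arrays lie between 1.10 and 1.51 and the DR4 arrays between 1.41 and 1.55, below the arrays of PS, DR6 and SOL, which all lie at 1.67 or higher.

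Eraf had a dim spot, and of the 5 genes it had the largest differences from SOL at PS, DR4 and DR6. AHSP, its product, keeps free alpha chains from precipitating. Its relative signal was 0.350, 0.350, 0.343 and 0.301 at PS, 0.160, 0.155, 0.142 and 0.123 at DR1, 0.0668, 0.0851, 0.0759 and 0.0455 at DR4 and 0.0927, 0.0570 and 0.0813 at DR6, against 0.200, 0.269, 0.280 and 0.244 at SOL. No stream array reached the SOL range, and all PS arrays lay above it. The spot was well above background on 3 of 4 DR4 arrays and on 1 of 3 DR6 arrays, and on all others. The log2 change was -1.89 ± 0.178 at DR4 (3.70-fold, adjusted p = 1.2e-07, limma) and -1.71 ± 0.192 at DR6 (adjusted p = 2.2e-06, limma), both called. Since 2 of the 3 DR6 spots were not well above background, the size of the DR6 difference is uncertain. The DR4 size is uncertain as well, with 3 of 4 spots well above background. At DR1 it was -0.77 ± 0.178 (adjusted p = 0.0018, limma), short of 2-fold, and the 0.44 ± 0.178 at PS did not pass (adjusted p = 0.066, limma).

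Alas2, whose enzyme joins glycine and succinyl-CoA in erythroid mitochondria, followed Hba-a1 closely. Its relative signal was 12.3, 12.2, 11.9 and 11.3 at PS, 5.33, 5.94, 4.76 and 4.66 at DR1, 3.82, 3.49, 3.21 and 3.12 at DR4 and 4.24, 3.90 and 3.46 at DR6, against 10.8, 10.3, 8.95 and 8.80 at SOL. PS arrays stood above and stream arrays below the SOL arrays, without overlap. The gene fell by 1.51 ± 0.094 at DR4 (adjusted p = 7.2e-10, limma) and by 1.33 ± 0.102 at DR6 (adjusted p = 2.4e-08, limma). The -0.91 ± 0.094 at DR1 (adjusted p = 7.4e-07, limma) and the 0.30 ± 0.094 at PS (adjusted p = 0.022, limma) were under 2-fold. Its spot was well above background on all arrays and never brighter than 3.50% of the ceiling.

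Slc4a1, the band 3 gene, was dim but above background on every array. It read 0.515, 0.483, 0.541 and 0.464 at PS, 0.276, 0.311, 0.250 and 0.294 at DR1, 0.163, 0.166, 0.131 and 0.121 at DR4 and 0.178, 0.182 and 0.210 at DR6, against 0.537, 0.409, 0.421 and 0.384 at SOL. The stream arrays again lay below all SOL arrays, and PS overlapped SOL through 1 high SOL array. It fell by 1.59 ± 0.117 at DR4 (adjusted p = 5.8e-09, limma) and by 1.20 ± 0.127 at DR6 (adjusted p = 1.1e-06, limma). At DR1 the log2 change was -0.62 ± 0.117 (adjusted p = 0.00035, limma) and at PS 0.20 ± 0.117 (adjusted p = 0.20, limma).

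The size of the change in both dim genes differed between settings. With normexp, a model-based background correction that here adds an offset of 50 intensity units, and quantile scaling, Eraf was at -0.47 and Slc4a1 at -0.56 at DR4, with -0.43 and -0.48 at DR6. All 4 values lost their 2-fold call and kept their sign. Under the same setting Hba-a1 at DR1 (-0.93) and Hbb-b1 at DR4 (-0.88) also came under 2-fold, as did Hbb-b1 at DR4 with quantile scaling alone (-0.87).

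Klf1 and Epb4.2 gave almost no signal. Klf1 was well above background on 1 DR1 and 1 DR4 array, with a relative signal of at most 0.0584 on any array. Epb4.2 was so on 1 PS array, through probe A_52_P73126 at 0.157, where the median of the 4 PS arrays was 0.0110. The second Epb4.2 probe was above background on no array. Without the filter on dim probes, neither gene was called at any site against SOL. Their log2 changes then ran between -0.39 and 0.16, values near background that carry no order.

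Arrays of a site did not overlap those of SOL for all 5 genes at each of DR1, DR4 and DR6, where 35.6%, 52.4% and 46.5% of all genes also had no overlap. At PS this held for 3 of 5, Hba-a1, Eraf and Alas2, against 36.8% of all genes. Arrays of different sites thus parted for many genes, and the pool, slide and scan of a site cannot be told apart in this.

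In order of level, PS came first for 4 genes, followed by SOL. PS and SOL did not separate for Eraf (adjusted p = 0.066, limma) or Slc4a1 (adjusted p = 0.20, limma). For Hba-a1 the order was PS, SOL, DR6, DR1 and DR4, and DR6 and DR1 did not differ beyond their spread (adjusted p = 0.56, limma). Eraf, Slc4a1 and Alas2 shared the order PS, SOL, DR1, DR6 and DR4. DR6 and DR4 did not separate for Eraf (adjusted p = 0.47, limma) or Alas2 (adjusted p = 0.17, limma), and for Slc4a1 the difference of DR4 minus DR6 was -0.39 ± 0.127 (adjusted p = 0.018, limma). Hbb-b1 alone had SOL ahead of PS, on the probe that was saturated at PS and with no separation of the 2 sites.

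The site labelled polluted at PS differed from the polluted stream sites in these genes. Set against DR4, PS had all 5 genes called higher, by 1.13 to 2.33 on the log2 scale, where 4.32% of all genes were called higher. Against DR6 4 of 5 were called higher (background 2.51%), with Hbb-b1 at 0.93. Both the 1.13 and the 0.93 are from the Hbb-b1 probe that was saturated on 3 PS arrays and may understate the difference. The other 3 Hbb-b1 probes gave 1.34 to 1.59 over DR4 and 1.16 to 1.60 over DR6, all called. With saturated spots left out, with median or quantile scaling or with the mean of all probes, 5 of 5 were called against DR6. With normexp and quantile scaling it was 3 of 5. Against DR4, 4 of 5 were called with quantile scaling alone and 2 of 5 with normexp and quantile scaling. Against DR1 PS had 3 of 5 called higher (background 2.64%), Hba-a1 at 1.48 ± 0.068, Eraf at 1.22 ± 0.178 and Alas2 at 1.21 ± 0.094. Eraf had the largest of these, 2.33 ± 0.178 over DR4 (5.04-fold, adjusted p = 1.1e-08, limma). Its spot was dim, and at DR4 not every array had it well above background, so the size of this difference is uncertain.

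Within the stream, the lower course had the highest level for all genes but Hba-a1. DR1 minus DR4 was positive for all 5 genes, 0.28 to 1.11, each with an adjusted p under 0.05 from limma, and 1 of 5 was called, Eraf at 1.11 ± 0.178 (background 3.05% called higher). That count was 0 to 2 when 1 array at a time was left out. DR1 against DR6 had 0 of 5 called by limma (background 7.5% in either direction), 4 of 5 with an unadjusted p under 0.05, and values between -0.05 for Hba-a1 and 0.93 for Eraf. Without DR1 replicate 4, or without DR6 replicate 1, that count was 1. DR4 against DR6 also had 0 of 5 called by limma (background 6.16%), 3 of 5 with an unadjusted p under 0.05, and a median of -0.20.

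The other genes of erythroid cells on the array were less uniform. Rhag and Kel, both red cell surface proteins, were well above background on no array, and Gata1, the central erythroid transcription factor, on 5 of 19. At DR1 Gata1 stood at least 1.42-fold above SOL (adjusted p = 0.0030, limma), and it was called at no site. Tal1, its partner, was at 0.09, 0.37, 0.29 and 0.20 at PS, DR1, DR4 and DR6 and did not pass. Of the 12 erythroid markers measured, which include the 5 above, 8 were called lower at DR4, 5 at DR6 and 1 at DR1. The shares of all genes called lower at these sites were 5.1%, 2.28% and 2.55%. The 3 further markers called at DR4 were Epor (the erythropoietin receptor, -1.05 ± 0.065), Trim10 (at least 2.07-fold, being below background there) and Spna1 (alpha-spectrin, at least 1.41-fold). At DR6 the other was Spna1, at least 1.05-fold, again a bound. Spna1 was well above background on 5 of 19 arrays, and its bounds do not show a 2-fold fall. Spnb1 and Car1 were called at no site. Spnb1 stood at least 1.22-fold above SOL at DR4, and Car1 was at -0.25 ± 0.231 at DR4 and 0.40 ± 0.250 at DR6.

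Genes of the red cell membrane and skeleton did not move together. Of 12 measured, 2 were called lower at DR4, Spna1 and Ank1 (ankyrin, -1.53 ± 0.164), and Spna1 at DR6. Both Spna1 values are bounds under 2-fold. Of all genes, 5.1% were called lower at DR4 and 2.28% at DR6. The list median lay between -0.12 and 0.05 at the 4 sites. Slc2a1 (the glucose transporter GLUT1) stood higher at DR1, DR4 and DR6, by 0.96, 0.92 and 0.77, short of 2-fold. It is not specific to red cells.

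The erythroid transcription factors likewise had medians between -0.11 and 0.10 over 8 measured genes. Nfe2, a factor of erythroid and megakaryocytic genes, fell at PS by 1.57 ± 0.134 (adjusted p = 1.2e-07, limma). Lmo2, a bridging factor of the Gata1 complex, rose at DR4 by 1.20 ± 0.097 (adjusted p = 1.8e-08, limma).

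Among 15 enzymes and late erythroid genes, 4 fell at DR4, 3 at DR1 and 1 at PS. Called lower over the whole array were 5.1% of genes at DR4, 2.55% at DR1 and 357 of 16346 at PS. Bpgm, which makes the 2,3-bisphosphoglycerate that lowers the oxygen affinity of hemoglobin, fell by 1.22 ± 0.106 at DR1 and by 1.74 ± 0.106 at DR4, with -0.54 ± 0.114 at DR6. Pklr, pyruvate kinase of liver and red cells, fell by 1.14 ± 0.159 at PS and by 2.98 ± 0.159 at DR4, and was also called lower at DR1, with -0.60 ± 0.172 at DR6. Hepatocytes express it too.

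Among heme synthesis genes other than Alas2, DR4 had the most calls, as it did over all genes. At DR4 5.1% of all genes were called lower, against 2.55% at DR1 and 2.28% at DR6. Of the 17 measured genes of heme synthesis and mitochondrial iron, 4 fell at DR4, with a median of -0.38, against 1 at DR1 and 1 at DR6. Those 4 were Alad (-1.15 ± 0.096) and Uros (-1.10 ± 0.046), which act on porphyrin precursors in the cytosol, Cpox (-1.18 ± 0.118), a later mitochondrial enzyme, and Abcb10 (-1.23 ± 0.223), a transporter of the inner mitochondrial membrane. Abcb10 also fell at DR1 (-1.23 ± 0.223) and at DR6 (at least 2.05-fold).

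Alas1, the form of the first enzyme used outside erythroid cells, was called at no site. It was at 0.47 ± 0.072 at PS, -0.33 ± 0.072 at DR1, -0.59 ± 0.072 at DR4 and -0.01 ± 0.077 at DR6. Slc25a37 (mitoferrin 1, which brings iron into mitochondria) was at 0.27 ± 0.051, -0.46 ± 0.051, -0.99 ± 0.051 and -0.70 ± 0.055 at the same sites, with no call. Fech, which inserts the iron into heme, stood at 0.21, 0.03, -0.31 and -0.24, uncalled.

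**Figure D4:**
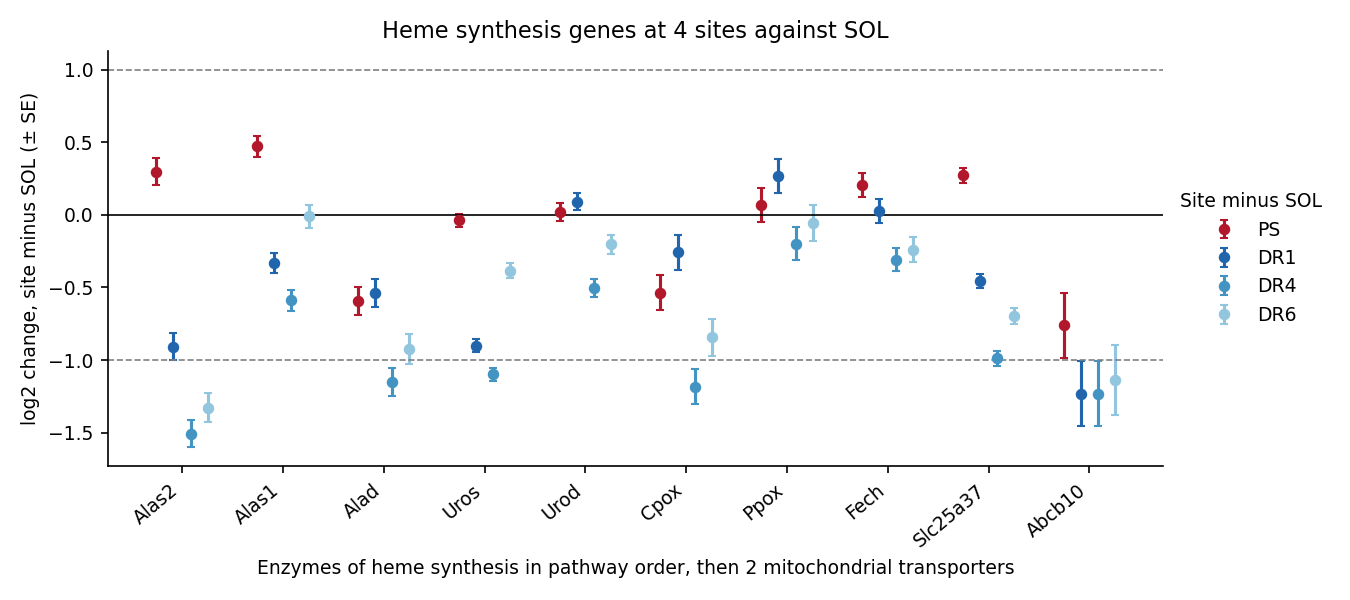
Log2 change against SOL (vertical axis, with SE) of Alas2 and Alas1, further enzymes of heme synthesis in pathway order and the transporters Slc25a37 and Abcb10, at PS, DR1, DR4 and DR6. Dashed lines mark 2-fold. Alas2 reaches -1.51 at DR4 and Alas1 -0.59, and Urod, Ppox and Fech stay between the dashed lines at all 4 sites.

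Of the genes of heme breakdown and hemoglobin clearance, 1 of 10 was called lower at each of PS, DR1 and DR4. Over all genes, 357 of 16346 were called lower at PS, 2.55% at DR1 and 5.1% at DR4. Hmox1, which opens the heme ring, was at 0.09, 0.27, 0.37 and 0.35 at PS, DR1, DR4 and DR6, and Hp (haptoglobin, which binds free hemoglobin) at -0.22, -0.45, -0.42 and -0.05, none called. Cd163, the macrophage receptor for the haptoglobin-hemoglobin complex, fell at PS by 2.09 ± 0.232 (adjusted p = 2.7e-06, limma). Ugt1a1, which conjugates bilirubin, fell by 1.05 ± 0.086 at DR1 and 1.08 ± 0.086 at DR4.

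Of 15 measured genes that signal to or within red cell formation, 1 rose and 1 fell at PS, 3 rose and 1 fell at DR1, 3 rose and 1 fell at DR4, and 2 rose and 1 fell at DR6. Over all genes, 4.42% were called in either direction at PS, 6.08% at DR1, 10.5% at DR4 and 6.95% at DR6. The list median was 0.03, 0.25, 0.23 and 0.08 at PS, DR1, DR4 and DR6. Hamp1 (hepcidin, which limits iron release into blood) rose at all 4 polluted sites, by 1.20 at PS, 1.95 at DR1, 2.24 at DR4 and 1.72 at DR6. Its part in the erythroid differences was not tested. Tfrc, the transferrin receptor, fell at PS (-1.25), DR1 (-1.10) and DR6 (-1.37), with -0.79 at DR4. Cish, which STAT5 signalling induces, rose at DR4 by 1.20 ± 0.057, and Socs3, another cytokine-induced inhibitor, at DR6 by 1.36 ± 0.074. Epo itself was well above background on no array.

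Of the embryonic globins, Hbb-y was at -0.01 ± 0.124 at PS, -0.36 ± 0.124 at DR1, -0.64 ± 0.124 at DR4 and -0.29 ± 0.134 at DR6, with no call. Hba-x and Hbb-bh1 did not pass the filter on dim probes.

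Markers of macrophages, including Kupffer cells, the resident macrophages of the liver that clear old red cells, read lowest at DR4 and DR6. All 15 of the list were measured and none was at background on any array. Their summed relative signal was 169 to 174 at PS, 156 to 179 at DR1, 94.4 to 109 at DR4 and 100 to 109 at DR6, against 182 to 215 at SOL. At DR4 3 of 15 fell, Marco (-1.84 ± 0.079), Clec4f (-1.43 ± 0.057) and Emr1 (-1.05 ± 0.064), and at DR6 Marco (-2.22 ± 0.085). At DR1 Cd68 fell by 1.02 ± 0.101, and at PS Cd163 by 2.09 ± 0.232. Over all genes, 5.1% were called lower at DR4, 2.28% at DR6, 2.55% at DR1 and 357 of 16346 at PS. The list median was 0.11, -0.02, -0.29 and -0.17 at PS, DR1, DR4 and DR6. Its part in the erythroid differences was not tested.

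The other blood cell lists are short, with 1 or 2 genes called in each. Over all 16346 genes, 365 were called higher and 357 lower at PS. At DR1 577 were called higher and 417 lower, at DR4 888 and 834, and at DR6 763 and 373. Of 6 platelet markers 1, Gp1bb, fell at PS and at DR1. Of 8 neutrophil markers 1, Lcn2, which hepatocytes also make, was called higher at DR1 and DR4. It was above background on 4 of 19 arrays and on none at SOL, so the DR1 value is a bound of at least 1.92-fold, and at DR4 no fold can be given. Among 12 lymphocyte markers 2 were called higher at PS, Cd79b (1.80) and Klrb1c, and Cd79b also at DR1 (1.14) and DR6 (1.45). Klrb1c was above background on 3 of 19 arrays and on none at SOL, so its PS value is a bound of at least 1.21-fold. These 3 lists had no gene called lower at DR4 or DR6, where the platelet gene Gp1bb was just short of 2-fold at DR4 (-0.996 ± 0.402, adjusted p = 0.046, limma) and the neutrophil gene Csf3r was at -0.55 ± 0.116 (adjusted p = 0.00064, limma). Of the 10 hepatocyte genes 1 fell, Apob at PS by 1.98, and their summed signal ranged over 1787 to 2096 at PS, 1473 to 1884 at DR1, 1820 to 2022 at DR4 and 2405 to 2557 at DR6, against 1958 to 2580 at SOL.

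The 5 genes resembled each other over the sites. With each gene centred on the mean of its 5 site means, the root mean square difference between members ran between 0.144 (Slc4a1 and Alas2) and 0.467 (Hbb-b1 and Eraf) on the log2 scale, and Pearson's r over the 19 arrays, which come from 5 pools, was 0.90 to 0.96. Of 11955 other named genes well above background on all arrays, the pattern of Hba-a1 was most closely matched by Tomm40l (root mean square difference 0.169, r = 0.97), C1rl (0.189), Rad51l1 (0.215), Cdr2, LOC668544 and LOC673334. For Alas2 they were Ddah1 (0.165, r = 0.96), LOC668544 (0.189), Rad51l1 (0.200, r = 0.98), Tomm40l, AI132189 and Nme4. With 5 pools, a likeness of this size describes these libraries only.

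Tomm40l, a paralog of a mitochondrial import channel, was at 0.19 at PS, -1.03 at DR1, -1.09 at DR4 and -1.02 at DR6 against SOL. Ddah1, which degrades methylated arginines, was at -0.08, -0.79, -1.63 and -1.41. Hba-a1 was at 0.25, -1.23, -1.52 and -1.18 and Alas2 at 0.30, -0.91, -1.51 and -1.33. Tomm40l and Ddah1 were chosen for their likeness, which is no test of it.

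**Figure D5:**
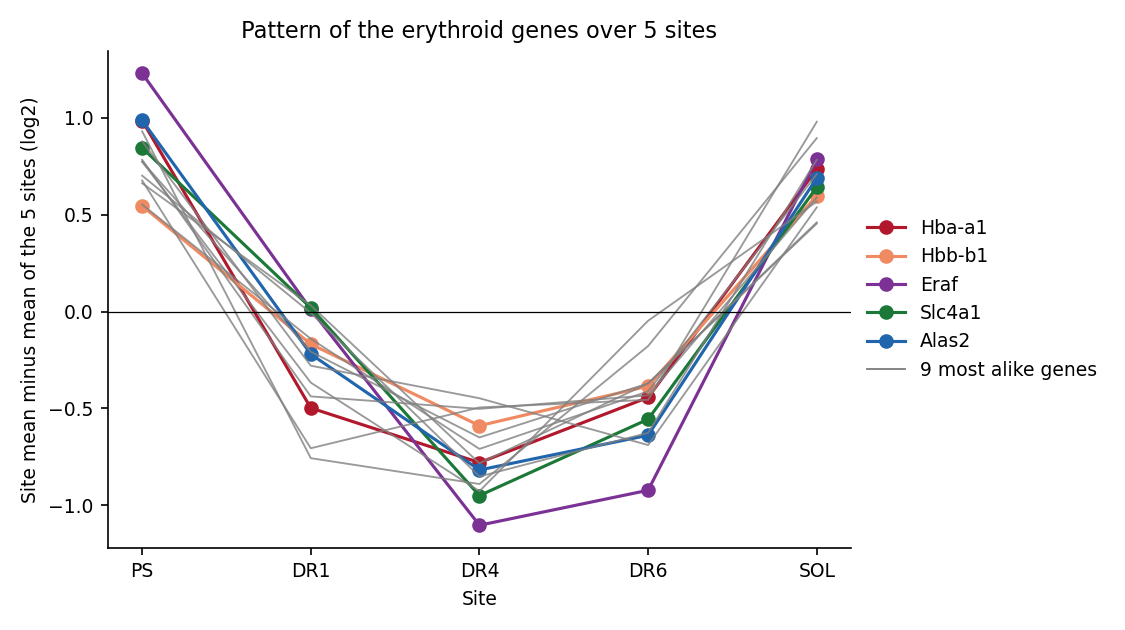
Site means of the 5 measured erythroid genes (coloured) and of the 9 genes most like Hba-a1 or Alas2 (grey), each centred on the mean of its 5 sites (vertical axis, log2). All lie above 0 at PS and SOL and below 0 at DR4 and DR6, and Eraf spans the widest range, between 1.23 at PS and -1.10 at DR4.

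The arrays compare 5 pools, of which 1 is from an unpolluted site. With the 5 pool means as units, the 4 polluted sites together lay below SOL by 0.75 to 0.98 on the log2 scale in the 5 genes, each with an adjusted p of 0.998 from limma. PS lay near SOL in all of them, between -0.05 and 0.44.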

How the data were processed

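Liver RNA pools of 5 sites were measured on 19 one-colour arrays. The deposited scanner files hold linear spot intensity, per the file headers. The submitters' processing notes name Agilent Feature Extraction 9.5.3.1 as the authors' software, which subtracts background and gives dim spots a surrogate value. The deposited series table holds the same intensity rounded (largest difference 0.497%) and served as an alternative. Mean and background intensity in the deposited files are raw. The flags (well above background, saturated, outlier, control) are scores of 0 or 1 from the authors' software, per the file headers. For DR1 the authors used an older array design with other names on 5.84% of gene spots. Names and mm8 coordinates were therefore taken from the newer design by probe, and sequences from the older one.

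Control spots (1639) were dropped, and the log2 signal was reduced by the 75th percentile of its array. Spots flagged as outliers were treated as missing, and repeat spots were averaged. A site with at least 3 arrays well above background was needed to keep a probe, which left 23458 of 41174. The brightest kept probe stood for each of 16346 genes. In R 4.3.3, limma 3.58.1 estimated a mean for every site from all arrays together, with two-sided tests adjusted over all genes in each of 10 pairs of sites. The fit was tested on simulated data, and was repeated over the 23458 single probes. A bound ("at least") sets the bright site's mean against the lowest signal well above background on the dim arrays. The number of arrays limits the precision.

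The genes and gene lists were chosen with earlier results of these data known. All probes of the 7 genes are named, from each list at most the 4 largest changes among called genes plus 10 set genes, and the 6 genes most like Hba-a1 and Alas2. Slc2a1, Slc25a37, Hbb-y, Hba-x, Hbb-bh1, Rhag, Kel, Spnb1, Car1, Epo, Cd68, Csf3r and further heme enzymes were named after their values were seen. Some list genes are counted but not reported by name here. Alternatives were other scalings, background corrections, filters and probe choices, a replicate block, each array left out, and pools as units.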

Additional observations from a re-analysis of the deposited data

Results flagged for a closer look

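Of 35 sets of 4 arrays (the measured probes and sites with 4 arrays), 2 held an array far from the others by Dixon's criterion, in which the gap to the nearest array is divided by the whole range and set against the 95% critical value. Chance flags about 1 in 20. Hba-a1 probe A_52_P278538 on DR1 replicate 2 had a gap of 0.957 of the range, with a relative signal of 118 against 144 to 146 on the other DR1 arrays. Eraf on PS replicate 4 had a gap of 0.853 of the range, at 0.301 against 0.343 to 0.350. Both arrays stayed on the same side of SOL as the rest of their site. Leaving out any 1 array kept the DR1 value of Hba-a1 between -1.26 and -1.16 and the PS value of Eraf between 0.35 and 0.51.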

How the results depend on the processing

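Over all alternatives and left-out arrays, the 5 genes kept their sign against SOL in 435 of 435 values at the 3 stream sites and in 139 of 145 at PS. The 6 exceptions were all Hbb-b1 at PS, uncalled throughout, at 0.03 with median scaling, 0.12 with quantile scaling, 0.02 with normexp, 0.17 with the mean of its probes, 0.11 with saturated spots left out and 0.00 without PS replicate 1. Normexp with quantile scaling cut the calls over all genes to 196 (PS minus SOL), 245 (DR1 minus SOL), 597 (DR4 minus SOL), 277 (DR6 minus SOL), 226 (PS minus DR1), 410 (PS minus DR4), 305 (PS minus DR6), 302 (DR1 minus DR6), 243 (DR4 minus DR6) and 196 (DR1 minus DR4), where the main counts were 722, 994, 1722, 1136, 1039, 1464, 1194, 1226, 1007 and 841. The cause was not tested. Under it 0 of the 5 genes were called at DR1, 2 at DR4 and 2 at DR6 against SOL, 2 for PS minus DR4 and 0 for DR1 minus DR4. Hbb-b1 lost its call at DR4 with quantile scaling (-0.87), and at DR6 it was called with median scaling (-1.07), without SOL replicate 3 (-1.02) and without DR6 replicate 3 (-1.01). For DR1 minus DR6, 1 of the 5 was called with median scaling, 1 with quantile scaling and 1 with the replicate block. For DR1 minus DR4, 2 were called with the arrays of lowest and highest 75th percentile left out, an alternative added after seeing the data, as were the saturated spots and the single probes. Leaving out each array in turn gave 0 to 1 and 0 to 2 in these comparisons. The replicate block changed no other count of these genes. Equal numbers mark only a position: 16 of 36 pairs correlated above 0.1 (-0.16 to 0.48, median 0.088), against 15 of 108 pairs of unequal number (median -0.034). Median scaling moved the share of higher calls to 55.8% for DR6 minus SOL (main 67.2%), 51.6% for PS minus DR1 (41.5%), 52.6% for PS minus DR6 (34.4%), 55.4% for DR1 minus DR6 (43.5%) and 49.2% for DR4 minus DR6 (38.7%), and the median of all genes by up to 0.17. Quantile scaling gave 45.2% for PS minus DR6. With pools as units 0 genes were called by limma (665 with an unadjusted p under 0.05), where the same contrast over arrays called 686. A slide block could not be fitted apart from site and was not run.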
